A study of Rattus norvegicus with 9 samples.

Results

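Genes that mark striatal projection neurons were followed across all libraries, 7 of the 32623 genes in the count table. They were given by their Ensembl rat identifiers, and no cutoff on their measured values was used, although earlier results of these data were known. All 7 were among the 15402 genes abundant enough to be tested. Striatal projection neurons are the spiny GABA neurons through which the striatum sends its output, and dopamine sets their activity. Those of the direct pathway carry the dopamine receptor Drd1 and make the peptide precursors Tac1 (substance P) and Pdyn (dynorphin). Those of the indirect pathway carry the dopamine receptor Drd2 and the adenosine receptor Adora2a, and make Penk (enkephalin). Both kinds hold Ppp1r1b, a phosphoprotein that inhibits protein phosphatase when cAMP signalling is active. None of these genes belongs to the striatum alone: Drd2 is also known from midbrain dopamine neurons, Pdyn from granule cells of the dentate gyrus, Tac1 from the hypothalamus and brainstem, Penk from many brain regions and Ppp1r1b from parts of the cortex. In the table Drd1 is ENSRNOG00000023688, Drd2 ENSRNOG00000008428, Adora2a ENSRNOG00000001302, Penk ENSRNOG00000008943, Tac1 ENSRNOG00000007374, Pdyn ENSRNOG00000026036 and Ppp1r1b ENSRNOG00000028404.

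The libraries were made from rat brain tissue, taken 3 days after an injection that was given 4.5 h after a modelling step. By title and treatment label the rats received saline, rt-PA (recombinant tissue plasminogen activator, a clot-dissolving enzyme) or Nano-patrol+NIR, with 3 libraries each. The table and the descriptions name the rt-PA libraries uk, and which agent this was is not settled by the labels. Neither the brain region and hemisphere nor the strain, sex, age and kind of model is given in the sources used here. All 3 groups underwent the modelling step, and no group without it, and none with Nano-patrol or NIR alone, was analysed here. Whether each library came from its own rat is not stated, so the p-values speak of the spread among these libraries, which can be technical.

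Levels are given in CPM, each library's counts scaled to a common total, with TMM factors. The library totals were 13059048 to 14992109 counts. CPM values are not corrected for transcript length, so the level of a gene was compared between libraries. A sum over genes, the share of a gene in it and a count ratio between genes also reflect transcript length. A gene was called where its edgeR quasi-likelihood p-value, adjusted over all 15402 genes by Benjamini-Hochberg, was under 0.05. One library of each group correlated less with the other libraries of its group over all tested genes. In log2 CPM the r values of saline 1 with its group were 0.926 and 0.931, against 0.990 between saline 2 and saline 3. Those of rt-PA 3 were 0.913 and 0.896, against 0.984 between rt-PA 1 and rt-PA 2. Those of Nano-patrol+NIR 3 were 0.940 and 0.944, against 0.985 between replicates 1 and 2. The log2 fold changes of the 7 genes are given with and without these 3 libraries.

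All 7 genes had counts in all 9 libraries, but no library was high or low in all of them at once. Their summed level ran from 229 to 374 CPM in saline, 281 to 494 CPM in rt-PA and 332 to 457 CPM in Nano-patrol+NIR. Ppp1r1b was the largest part of this sum in every library but saline 1, with 381 of 494 CPM in rt-PA 2. In saline 1 it was Penk, with 120 of 229 CPM, so the sum says little of the other genes. On the log2 scale, the number of genes above their own mean over the 9 libraries was 3 in saline 1, 3 in saline 2 and 1 in saline 3. It was 5, 4 and 3 in rt-PA 1, 2 and 3, and 5, 2 and 5 in Nano-patrol+NIR 1, 2 and 3. Saline 1 had the highest level of Penk and Adora2a and the lowest of Drd1, Pdyn and Ppp1r1b. rt-PA 3 had the highest level of Drd2 and Tac1 and the lowest of Adora2a. The genes did not vary as 1 unit, and no single level of them is used here as a measure of striatal tissue. Marker lists for cortex, hippocampus, thalamus and other regions were written as gene symbols and could not be matched to the identifiers of the table, so which region each library holds was not tested. In bulk tissue, fewer cells of a type and less RNA per cell cannot be told apart.

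**Figure D1:**
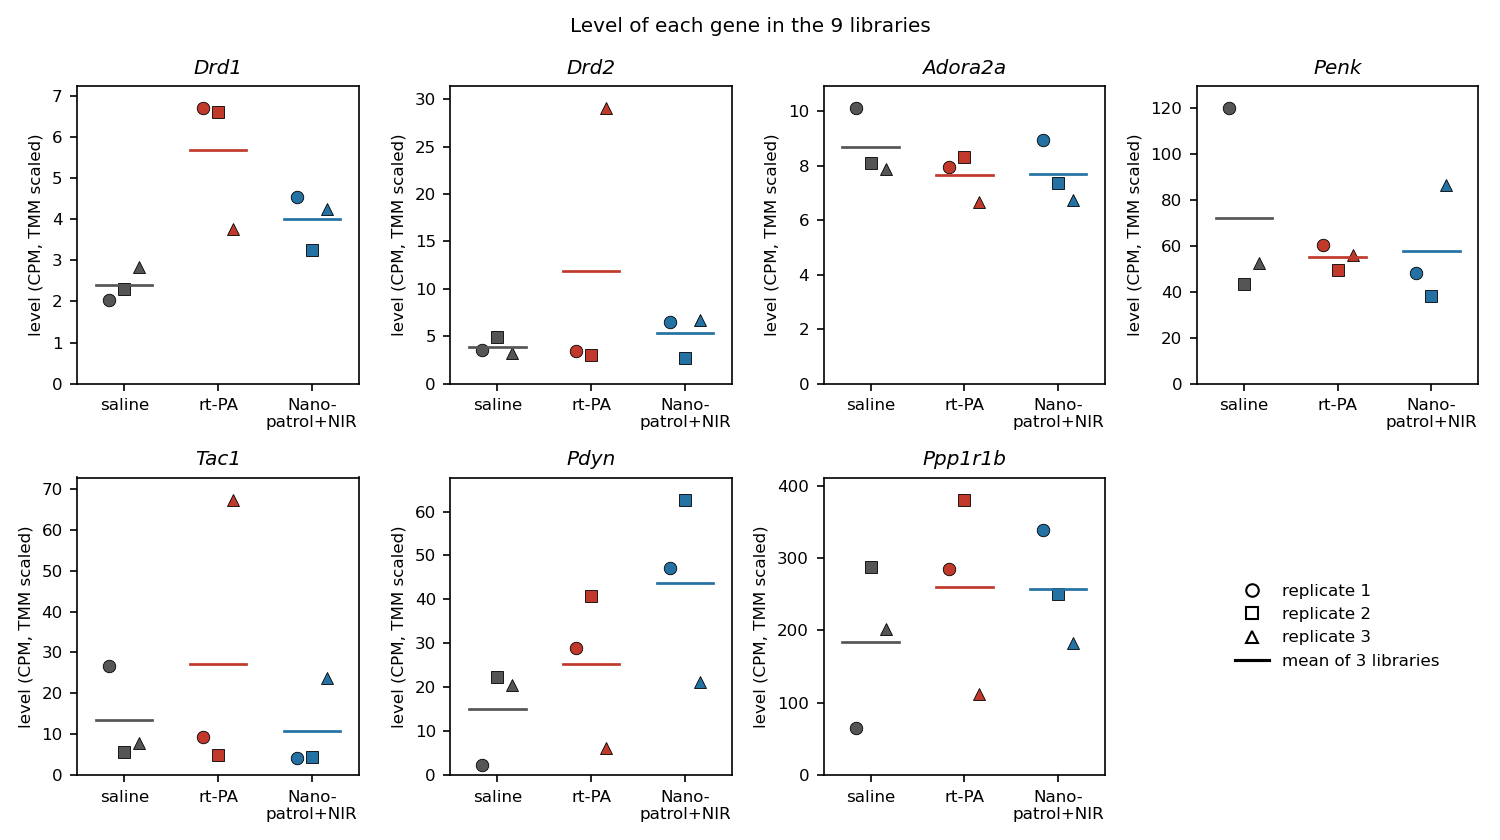
Level of each gene in CPM (vertical axes, linear, from 0, with a scale for each gene) in the saline, rt-PA and Nano-patrol+NIR libraries, where circles, squares and triangles are replicates 1, 2 and 3 and bars are means of 3 libraries. The saline libraries lie below all others for Drd1, and 1 library per group lies far from the rest of its group for Tac1 and Pdyn.

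Spread between libraries was wide for most of the 7 genes. The standard deviation of log2 CPM over the 9 libraries had a median of 0.82 over the 7 genes and 0.40 over all tested genes. It was 1.51 for Pdyn, 1.40 for Tac1, 1.04 for Drd2, 0.82 for Ppp1r1b, 0.58 for Drd1, 0.51 for Penk and 0.19 for Adora2a. The highest library exceeded the lowest 28.9-fold for Pdyn, 16.4-fold for Tac1 and 10.7-fold for Drd2, and 1.51-fold for Adora2a. For Pdyn and Tac1, 97.4% and 96.7% of tested genes had a smaller standard deviation, and for Adora2a 11.8% did. Counting error was small beside this spread except for Adora2a, whose coefficient of variation over 9 libraries was 13.4% at a mean of 110 counts, where counting alone gives 9.55%.

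Sequences before the start sites of Drd2 and Pdyn are shown because, of the listed windows, only theirs lay outside the annotated gene span. The sequences are the 250 bases before the start site, from RefSeq (GRCr8), 5′ to 3′ in the direction of transcription. Capitals mark GGGCGG, the core of a GC box, and TATAAA, the core of a TATA box, each on either strand. The first lies at chr8:58605153.0-58605402.0 on the plus strand and the other at chr3:137366504.0-137366753.0 on the minus strand.
Drd2: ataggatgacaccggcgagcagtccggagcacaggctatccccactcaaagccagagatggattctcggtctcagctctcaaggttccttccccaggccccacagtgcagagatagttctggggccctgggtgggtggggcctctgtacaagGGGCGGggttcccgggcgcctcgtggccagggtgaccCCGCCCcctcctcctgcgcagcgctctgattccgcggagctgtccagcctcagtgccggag
Pdyn: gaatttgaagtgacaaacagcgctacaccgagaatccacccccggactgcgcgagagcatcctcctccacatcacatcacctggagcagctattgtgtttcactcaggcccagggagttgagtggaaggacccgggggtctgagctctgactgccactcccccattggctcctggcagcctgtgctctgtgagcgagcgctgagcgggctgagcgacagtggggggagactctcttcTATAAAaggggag

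The Drd2 sequence held GGGCGG at 2 places, starting at base -98 and base -61 from the start site, and no TATAAA. The Pdyn sequence held TATAAA at base -13 and no GGGCGG. Of 33469 RefSeq promoters of this length, 30.5% held GGGCGG and 12.9% held TATAAA. The short cAMP response motif CGTCA, in 18.2% of promoters, the E-box CACGTG, in 5.59%, and the AP-1 motif TGANTCA, in 6.34%, were in neither sequence. The listed window of Drd1 lies inside the annotated span of the gene and that of Tac1 runs into it, so neither is printed. That of Tac1 held CGTCA at base -206 and CACGTG at base -72, and that of Drd1 held 0 of these 5 motifs. Adora2a, Penk and Ppp1r1b had no entry. None of the motifs overlapped another, and a match is a description of letters, not of a bound factor.

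Among the receptors, Drd1 had its 3 lowest levels in the 3 saline libraries, a difference that did not pass the threshold with edgeR. It had 30, 30 and 40 counts in saline 1, 2 and 3, that is 2.04, 2.31 and 2.84 CPM. In the rt-PA libraries it had 87, 87 and 54 counts (6.72, 6.63 and 3.76 CPM), and in Nano-patrol+NIR 61, 43 and 61 counts (4.55, 3.26 and 4.25 CPM). Every treated library was above every saline library, whereas the rt-PA and Nano-patrol+NIR ranges overlapped through rt-PA 3. At such counts the exact Poisson 95% interval, which covers counting error only, was 28.6 to 54.5 counts for saline 3 and 31.1 to 57.9 for Nano-patrol+NIR 2, the treated library nearest to it, so these overlapped within counting error. That of rt-PA 3, the lowest of its group, was 40.6 to 70.5 counts and also overlapped that of saline 3. The interval for rt-PA 1 was 69.7 to 107 counts.

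The mean of Drd1 was 5.70 ± 1.68 CPM under rt-PA against 2.40 ± 0.41 CPM under saline (SD, n = 3 each), with a log2 fold change of 1.25 (SE 0.32). Its p was the smallest of the 7 genes in this comparison, yet after adjustment by edgeR it was 0.123 and did not pass. Of all tested genes 0.00649% were called in this comparison, and of the 7 genes 0 were. Before adjustment Drd1 was the 1 gene of the 7 with an edgeR p under 0.05, and 9.05% of all tested genes passed that mark in the same direction. Its rt-PA range lay above its saline range, which held for 1 of the 7 genes and for 9.18% of all genes. The call depended on the test and on rt-PA 3. Of the alternatives tried, Drd1 passed in 4 and did not pass in 14. Without rt-PA 3 the log2 fold change was 1.50 with an edgeR adjusted p of 0.0117, in a fit that called 13.5% of all genes. DESeq2 gave 1.28 with an adjusted p of 0.0103 and called 6.9% of all genes. limma-voom with library weights gave 1.31 with an adjusted p of 0.000852 and called 45.2%. Unweighted limma-voom gave 1.19 with an adjusted p of 0.170, which did not pass. Nor did edgeR with only the 6 libraries compared, at 1.25 with an adjusted p of 0.248. Leaving out any single library other than rt-PA 3 gave edgeR adjusted p-values of 0.137 to 0.368.

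In Nano-patrol+NIR Drd1 had a mean of 4.02 ± 0.67 CPM (SD, n = 3), a log2 fold change of 0.74 (SE 0.32) against the same saline libraries, with an edgeR adjusted p of 0.827. This comparison too called 0 of the 7 genes and 0.00649% of all genes. Before adjustment Drd1 was again the 1 gene of the 7 with an edgeR p under 0.05, a mark that 3.44% of all genes passed in that direction. It was also the 1 whose treated range lay above its saline range, as for 7.62% of all genes. Between Nano-patrol+NIR and rt-PA 0 of the 7 genes and 0% of all genes were called. Before adjustment 0 of the 7 and 13.8% of all genes had an edgeR p under 0.05, and the ranges lay apart for 0 of the 7 and 17.4% of all genes. The Drd1 difference there was -0.50 on the log2 scale (SE 0.31, edgeR adjusted p = 0.515). With library weights in limma-voom, which called 39.1% of all genes, it was -0.78 with an adjusted p of 0.0120. Both treatments were compared with the same 3 saline libraries, so these differences are not independent.

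Drd2 had by far its highest level in rt-PA 3. Saline 1, 2 and 3 had 3.53, 4.93 and 3.20 CPM, and rt-PA 1 and 2 had 3.47 and 3.05 CPM. rt-PA 3 had 29.1 CPM, from 418 counts, against 36 to 97 counts in the other 8 libraries. Nano-patrol+NIR 1, 2 and 3 had 6.49, 2.73 and 6.75 CPM. The groups overlapped in all 3 comparisons, and the rt-PA mean of 11.9 ± 14.9 CPM (SD, n = 3) had an SD larger than itself. Against saline the difference was 1.61 on the log2 scale (SE 0.83, edgeR adjusted p = 0.36), and -0.22 without rt-PA 3 (edgeR adjusted p = 0.766). Nano-patrol+NIR against saline gave 0.46 (SE 0.83, edgeR adjusted p = 1.00), and against rt-PA -1.16 (SE 0.82, edgeR adjusted p = 0.572), which was 0.67 without rt-PA 3. With all 3 least correlated libraries left out, the log2 fold changes were -0.26, 0.19 and 0.46 in the same order.

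Adora2a, which indirect pathway neurons carry together with Drd2, varied least of the 7 genes. Its levels were 10.1, 8.09 and 7.89 CPM in saline, 7.95, 8.30 and 6.68 CPM in rt-PA and 8.95, 7.36 and 6.75 CPM in Nano-patrol+NIR. rt-PA 3, the library with the most Drd2, had the least Adora2a. The count of Drd2 per count of Adora2a was 4.35 in rt-PA 3 and 0.349 to 1.0 in the other libraries. The groups overlapped, with log2 fold changes of -0.19 (SE 0.22) for rt-PA and -0.18 (SE 0.22) for Nano-patrol+NIR against saline and 0.01 (SE 0.22) between the treatments. The edgeR adjusted p-values were 0.694, 1.00 and 0.990. Without the 3 least correlated libraries the log2 fold changes were 0.073, 0.037 and -0.036.

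The dopamine receptors Drd1 and Drd2 can be set against each other within a library, where scaling plays no part. Drd2 counts per Drd1 count were 1.73, 2.13 and 1.13 in saline and 1.43, 0.837 and 1.59 in Nano-patrol+NIR. They were 0.517 and 0.46 in rt-PA 1 and rt-PA 2, below all other libraries, and 7.74 in rt-PA 3, above all others. The rt-PA group thus held both the lowest and the highest values of this ratio.

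**Figure D2:**
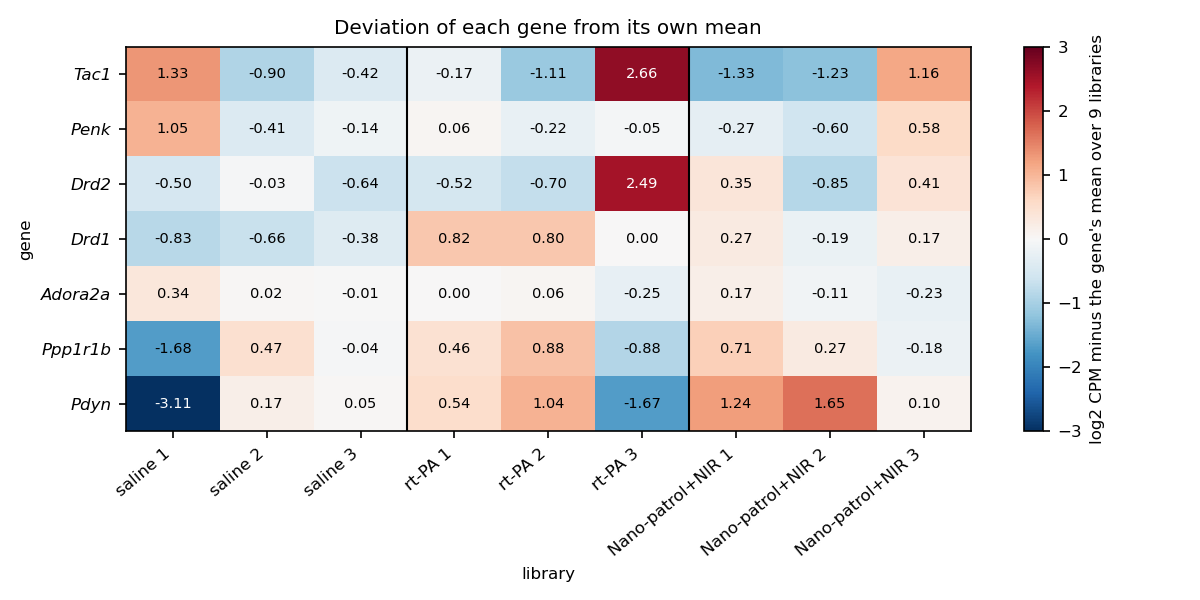
Log2 CPM of each gene (rows) in each library (columns) minus the mean of that gene over the 9 libraries, with vertical lines between saline, rt-PA and Nano-patrol+NIR and colours that saturate at -3 and 3. Tac1 is at 1.33, 2.66 and 1.16 in saline 1, rt-PA 3 and Nano-patrol+NIR 3, where Pdyn is at -3.11, -1.67 and 0.10.

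Among the peptide precursors, Tac1 was high in 1 library of each group. It had 26.7 CPM in saline 1 against 5.55 and 7.82 CPM in saline 2 and 3. In rt-PA 3 it had 67.4 CPM, from 969 counts, against 9.34 and 4.80 CPM in rt-PA 1 and 2. In Nano-patrol+NIR 3 it had 23.7 CPM against 4.10 and 4.40 CPM in replicates 1 and 2. The 3 high libraries were those that correlated least with their groups, and each was above the 6 others. The groups overlapped. Log2 fold changes were 1.03 (SE 1.09) for rt-PA and -0.31 (SE 1.09) for Nano-patrol+NIR against saline, and -1.34 (SE 1.10) between the treatments, with edgeR adjusted p-values of 0.665, 1.00 and 0.624. Without rt-PA 3 the first was -0.90 and the last 0.58, and without saline 1 the second was 0.71. With saline 1, rt-PA 3 and Nano-patrol+NIR 3 all left out they were 0.13, -0.65 and -0.77. Leaving out any 1 library gave -0.90 to 2.04, -1.66 to 0.71 and -2.68 to 0.58.

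Pdyn, made by direct pathway neurons as Tac1 is, had the opposite pattern. It had 2.17 CPM in saline 1, from 32 counts, against 22.3 and 20.5 CPM in saline 2 and 3. rt-PA 3 had 6.12 CPM against 28.9 and 40.8 CPM in rt-PA 1 and 2, and Nano-patrol+NIR 3 had 21.2 CPM against 47.2 and 62.7 CPM in replicates 1 and 2. In each group the library highest in Tac1 was the lowest in Pdyn. Tac1 counts per Pdyn count were 12.3 in saline 1, 11.0 in rt-PA 3 and 1.12 in Nano-patrol+NIR 3, and 0.0701 to 0.382 in the other 6 libraries.

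Mean Pdyn levels were 15.0 ± 11.1 CPM in saline, 25.3 ± 17.6 CPM in rt-PA and 43.7 ± 21.0 CPM in Nano-patrol+NIR (SD, n = 3 each), with overlapping ranges. Log2 fold changes were 0.76 (SE 0.86) for rt-PA and 1.55 (SE 0.87) for Nano-patrol+NIR against saline and 0.79 (SE 0.85) between the treatments. The edgeR adjusted p-values were 0.685, 0.960 and 0.722. When saline 1, rt-PA 3 and Nano-patrol+NIR 3 were left out, the log2 fold changes were 0.75, 1.37 and 0.62, and the edgeR adjusted p-values were 0.0128, 0.00844 and 0.0280. The libraries left out were the lowest of their groups in Pdyn, and without them its SE was 0.19 in each comparison. They were chosen after seeing the data, so these p-values are a description and no test. With library weights in limma-voom Pdyn passed against saline in Nano-patrol+NIR (log2 fold change 1.41, adjusted p = 0.0493), as did 5.9% of all genes. Leaving out 1 library at a time moved Pdyn more, to between 0.23 (without rt-PA 2) and 1.26 (without rt-PA 3) for rt-PA against saline. The range was 1.04 (without saline 1) to 1.94 (without saline 2) for Nano-patrol+NIR against saline, and 0.28 (without rt-PA 3) to 1.32 (without rt-PA 2) between the treatments. The fits without the 3 libraries left 2 libraries per group, chosen as the most alike, and called 43.8%, 3.27% and 40.5% of all genes. Drd1 in these fits had log2 fold changes of 1.41, 0.60 and -0.81, with edgeR adjusted p-values of 0.00256, 0.302 and 0.0317. The other 5 genes passed the threshold in none of these 3 fits.

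Penk was high in saline 1 and in Nano-patrol+NIR 3 but not in rt-PA 3. Saline 1 had 120 CPM against 43.5 and 52.7 CPM in saline 2 and 3, and Nano-patrol+NIR 3 had 86.7 CPM against 48.0 and 38.2 CPM in replicates 1 and 2. The rt-PA libraries had 60.5, 49.6 and 55.9 CPM, a coefficient of variation of 9.93%, against 58.0% in saline and 44.5% in Nano-patrol+NIR. rt-PA 3, in which Tac1 and Drd2 were highest, lay between rt-PA 1 and rt-PA 2 in Penk. Penk counts per Tac1 count were 0.829 in rt-PA 3 and 3.65 to 11.7 in the other libraries. Log2 fold changes were -0.38 (SE 0.42) for rt-PA and -0.32 (SE 0.42) for Nano-patrol+NIR against saline and 0.06 (SE 0.42) between the treatments, with edgeR adjusted p-values of 0.672, 1.00 and 0.962. Without saline 1 the first 2 were 0.24 and 0.28, and without the 3 least correlated libraries all 3 were 0.24, -0.15 and -0.39.

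Ppp1r1b, held by neurons of both pathways, had its lowest level of each group in the same libraries as Pdyn. These were saline 1 (64.5 CPM, against 288 and 201 CPM), rt-PA 3 (112 CPM, against 285 and 381 CPM) and Nano-patrol+NIR 3 (183 CPM, against 338 and 251 CPM). Mean levels were 185 ± 113 CPM in saline, 259 ± 136 CPM in rt-PA and 257 ± 77.9 CPM in Nano-patrol+NIR (SD, n = 3 each), with overlapping ranges. Log2 fold changes against saline were 0.49 (SE 0.57) for rt-PA and 0.48 (SE 0.57) for Nano-patrol+NIR, and -0.01 (SE 0.57) between the treatments, with edgeR adjusted p-values of 0.692, 1.00 and 0.995. Without the 3 least correlated libraries they were 0.49, 0.28 and -0.22. Leaving out 1 library gave 0.11 (without rt-PA 2) to 0.99 (without saline 2) for rt-PA and 0.085 (without saline 1) to 0.94 (without saline 2) for Nano-patrol+NIR against saline. With 951 to 5002 counts per library, counting error was about 1.78% at the mean.

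**Figure D3:**
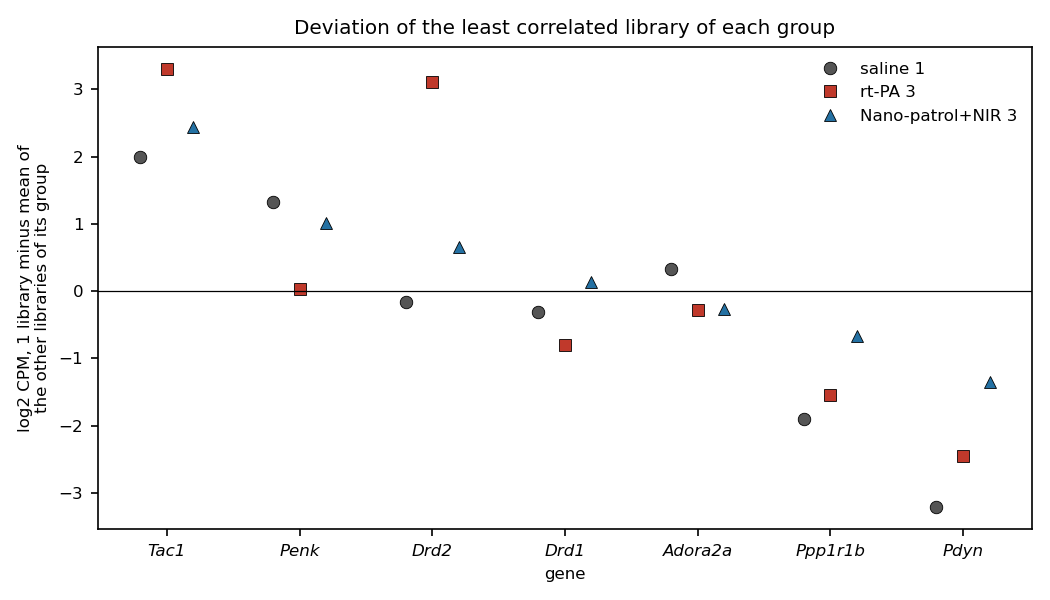
For each gene, log2 CPM of saline 1 (circles), rt-PA 3 (squares) and Nano-patrol+NIR 3 (triangles) minus the mean of the other libraries of the same group. Tac1 lies at 1.99 to 3.30 in all 3 groups and Pdyn at -3.21 to -1.35, while Adora2a lies between -0.28 and 0.33.

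The size of these excursions can be read against all genes. Relative to the mean log2 CPM of the rest of its group, Tac1 was higher by 1.99 in saline 1, 3.30 in rt-PA 3 and 2.44 in Nano-patrol+NIR 3. Pdyn was at -3.21, -2.46 and -1.35 on the same scale, and Ppp1r1b at -1.90, -1.55 and -0.67. The median absolute difference over all tested genes was 0.43, 0.50 and 0.35. A difference of more than 2-fold upward in all 3 groups was found for 169 genes (1.1% of those tested), Tac1 among them, and downward for 203 genes (1.32%), Pdyn among them. These libraries were picked because they differ from their groups over all genes, so the shares are a description and no test. Drd2 differed mainly in rt-PA 3, at 3.10, against -0.17 in saline 1 and 0.66 in Nano-patrol+NIR 3. Drd1 differed by -0.31, -0.80 and 0.13.

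**Figure D4:**
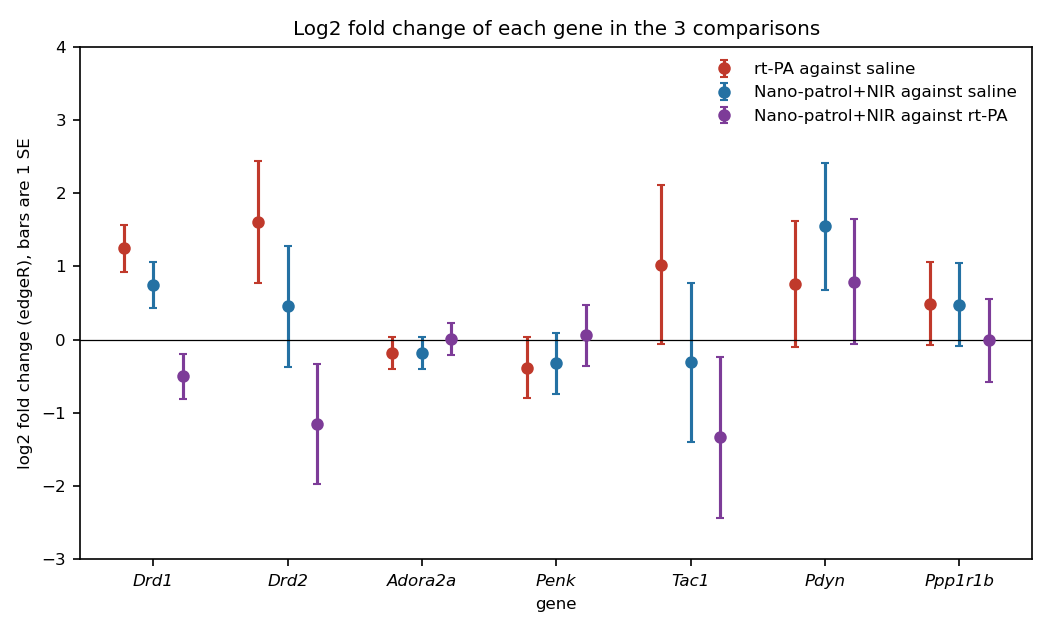
Log2 fold change of each gene from edgeR in the 3 comparisons, with bars of 1 SE. Drd1 and Adora2a have the shortest bars (SE 0.31 to 0.32 and 0.22), and Tac1 the longest (SE 1.09 to 1.10).

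Over the 3 comparisons, no direction was common to the 7 genes. In rt-PA against saline 5 had a positive log2 fold change and 2 a negative one, with a median of 0.76 and a median size of 0.76, against -0.01 and 0.32 over all tested genes. In Nano-patrol+NIR against saline 4 were positive and 3 negative, with a median of 0.46 and a median size of 0.46, against -0.01 and 0.19. Between Nano-patrol+NIR and rt-PA 3 were positive and 4 negative, with a median of -0.01 and a median size of 0.50, against 0.02 and 0.29. The 7 genes also varied more between libraries, with a median standard deviation of log2 CPM of 0.82 against 0.40 over all tested genes. Without the 3 least correlated libraries, rt-PA against saline gave 1.41 for Drd1, 0.75 for Pdyn, 0.49 for Ppp1r1b and 0.24 for Penk. The remaining values were 0.13 for Tac1, 0.073 for Adora2a and -0.26 for Drd2. In the test of any difference among the groups, which called 0.00649% of all genes, Drd1 had the smallest p of the 7 (edgeR adjusted p = 0.213), and 0 of 7 passed.

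Genes with the pattern nearest to the mean of the 7 genes (log2 CPM, each gene centred on its own mean, 9 libraries that share their groups) were sought among 11855 other genes averaging at least 5 CPM. The highest correlations were those of ENSRNOG00000003223 (r = 0.973) and ENSRNOG00000012880 (r = 0.969), and the lowest those of ENSRNOG00000059919 (r = -0.979) and ENSRNOG00000012420 (r = -0.952). ENSRNOG00000003223 had 45.2 to 57.2 CPM in saline, 62.7 to 76.7 CPM in rt-PA and 57.6 to 74.3 CPM in Nano-patrol+NIR. ENSRNOG00000012420 had 133 to 161 CPM in saline, 76.7 to 99.1 CPM in rt-PA and 87.2 to 108 CPM in Nano-patrol+NIR. The mean itself described the 7 genes poorly, with r of -0.65 for Adora2a, -0.19 for Penk, 0.21 for Tac1, 0.33 for Pdyn, 0.35 for Ppp1r1b, 0.59 for Drd2 and 0.75 for Drd1. In each group the least correlated library differed from the rest over many genes. The sign of that difference was shared by all 3 groups for 39.7% of tested genes (6115 of 15402), and not for the others. These correlations are descriptions over such libraries, and no p-value is attached to them.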

How the data were processed

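Trizol-extracted RNA of rat brain was poly(A)-selected, per the labels' protocols. HISAT2, StringTie 1.3.1, Bowtie2 2.2.8 and fastp 0.18.0 are named, without their roles, in the submitters' processing notes. The counter, strand setting, genome build and annotation were not given in the sources used here, so reads of overlapping or antisense genes cannot be told apart. The authors deposited whole-number read counts per Ensembl gene and library, not normalized. Columns were matched to samples by the sample descriptions.

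Counts were filtered (filterByExpr, 15402 of 32623 genes kept), scaled by TMM and tested in R 4.3.3 with edgeR 4.0.16 (robust quasi-likelihood F test, all 9 libraries, 6 residual degrees of freedom before moderation). The SE was taken as log2 fold change over root F. log2 CPM used a prior count of 2. The edgeR procedure was checked on simulated counts. These held no library that departs from its group over many genes, so the check does not cover that feature of the data.

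The identifiers of the 7 genes came with the definition of the gene set. The RefSeq table lists 47357 genes with 0 Ensembl identifiers, so 14 other lists (pathway genes and region or cell type markers) were not tested, and similar genes are given by identifier, 2 at each end. The named genes were all 7 members and those similar genes. The genes and lists were chosen with earlier results of these data known. With 3 libraries against 3 an exact permutation test cannot go below 0.1, so none was run. Alternatives were DESeq2 1.42.0, limma-voom and its weighted form (limma 3.58.1), other scalings, no filter, the 6 libraries compared, a replicate block, and leaving out libraries.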

Additional observations from a re-analysis of the deposited data

How the results depend on the processing

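With edgeR the comparison of rt-PA with saline called 1 gene, that of Nano-patrol+NIR with saline 1, that between the treatments 0 and the test of any group 1, and counts below keep this order. Before adjustment 2621, 907, 2121 and 2270 edgeR p-values were under 0.05. Counts with library weights in limma-voom were 6956, 909, 6027 and 7624, and those with DESeq2 were 1062, 132, 627 and 1090. Unweighted limma-voom gave 0, 0, 1 and 0, with 2384, 782, 1897 and 1975 p-values under 0.05 before adjustment. With only the 6 libraries compared the pairwise counts were 0, 3 and 0 (2006, 1173 and 1918 before adjustment). Without a filter the test of any group called 3. Leaving out 1 library gave 0 to 2112, 0 to 35, 0 to 2047 and 1 to 1893, the highest each time without rt-PA 3. With the 3 least correlated libraries (saline 1, rt-PA 3, Nano-patrol+NIR 3) all left out, a choice made after seeing the data, 6710, 501, 6195 and 6932 were called. Replicate numbers were not stated to pair the samples, and same-numbered deviations correlated at -0.362 to 0.278. The replicate block called 0, 0, 0 and 1 genes (2279, 741, 1865 and 1846 before adjustment), and 0 of the 7 genes.

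Drd1 and Pdyn kept their direction in all 18 alternatives of each comparison, and Drd2 and Ppp1r1b did for Nano-patrol+NIR against saline, as Ppp1r1b did for rt-PA against saline. Drd1 passed the threshold in 4 alternatives for rt-PA against saline and in 2 between the treatments, and Pdyn in 1, 2 and 1. Each of these counts includes the fit without the 3 libraries together, a choice made after seeing the data. Reversals for rt-PA against saline with weights were Drd2 at -0.034 and Penk at 0.19. Without the 3 libraries together they were Drd2 at -0.26, Adora2a at 0.073 and Penk at 0.24. Leaving out 1 library gave -0.22 to 2.07 for Drd2, -0.64 to 0.24 for Penk and -0.90 to 2.04 for Tac1. For Nano-patrol+NIR against saline Adora2a was 0.037 without the 3 libraries, and leaving out 1 gave -0.75 to 0.28 for Penk and -1.66 to 0.71 for Tac1. Between the treatments Adora2a was -0.018 with DESeq2, -0.0093 with weights, -0.019 with relative log expression scaling, -0.012 with no filter and -0.036 without the 3 libraries. Penk there was -0.023 with limma-voom, -0.38 with weights and -0.39 without the 3 libraries, and Drd2 was 0.19 and 0.46 in the last 2 of these. Ppp1r1b was 0.11 with limma-voom, 0.022 with library totals alone and 0.10 with the replicate block. Leaving out 1 library gave -0.14 to 0.071 for Adora2a, -1.61 to 0.67 for Drd2, -0.39 to 0.26 for Penk, -2.68 to 0.58 for Tac1 and -0.41 to 0.37 for Ppp1r1b. What caused these shifts was not tested. DESeq2 gave neither a p-value nor an adjusted p for Drd2 in any of the 3 comparisons.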
